A study of Drosophila melanogaster with 30 samples.

Results

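H3K27me3, a trimethylation of the histone H3 tail, was compared between neurons and type I neuroblasts of the larval brain of Drosophila melanogaster. The comparison rests on 4 chromatin immunoprecipitation (ChIP) libraries, 2 of neurons and 2 of type I neuroblasts, out of 16 libraries with count tables in a series of 30 samples. They were taken by their labels alone, and no measured value entered the choice. Every gene was compared: 14182 of the 14284 genes in the tables passed a filter on low counts, and the 2 neuron libraries are also described one by one, because they lie far apart. Reads were counted over whole gene models on the dm3 genome build. Values below are counts scaled to a common library size (CPM) after TMM scaling, which sets libraries to a common scale by the genes that differ least, and they are listed as replicate 1 and then replicate 2 of each group.

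All cells came from wandering L3 larvae, were isolated from dissected brains by a published neuroblast and neuron isolation procedure, and were digested with MNase, an enzyme that cuts between nucleosomes. The neuron libraries are labelled as neurons with no genotype, and the type I neuroblast libraries as neuroblasts, with no RNAi named. The driver or reporter that marked the sorted cells is not given in the sources used here, so which neurons were taken is not known. Another 4 H3K27me3 libraries, from brat RNAi and from brat and numb RNAi neuroblasts, share the estimate of the spread and enter no difference reported here. Whether the 2 libraries within a group derive from separate animals is not stated, so the spread behind each p value may be technical only. In bulk chromatin, a change in the share of cells that carry the mark cannot be told apart from a change in the amount of mark per cell.

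A type I neuroblast renews itself at each division and sheds a ganglion mother cell, whose daughters become neurons or glia. H3K27me3 is written by Polycomb repressive complex PRC2, through its enzyme E(z), and is bound by the complex PRC1. Both act at Polycomb response elements in flies, and the mark spreads from them into domains that can cover several neighbouring genes. In the nervous system it keeps Hox genes and other developmental transcription factors silent outside the cells that use them, and it can be laid over stem cell genes once progenitors differentiate.

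The neuron libraries held 16702071 and 25009648 counts and the type I neuroblast libraries 15306647 and 15281722. The labels were checked by H3K4me3, a mark of active gene starts, in other libraries of the same groups. Summed over 7 neuroblast markers (dpn, wor, ase, mira, insc, klu and CycE) it was 204 and 213 CPM in neurons, against 1345 and 1091 CPM in type I neuroblasts. Over 7 neuron markers the sum was 780 and 494 CPM in neurons, against 512 and 223 CPM in type I neuroblasts, so the groups overlap there. At elav, the defining neuronal RNA-binding protein gene, H3K4me3 was 385 and 185 CPM in neurons, against 273 and 163 CPM in type I neuroblasts, and the groups overlap there too. H3K4me3 summed over 14 glia markers was 193 and 202 CPM in neurons and 325 and 273 CPM in type I neuroblasts, and without loco, which is also a neuroblast polarity gene, the sums overlapped, with 105 and 179 CPM in neurons and 81.9 and 157 CPM in type I neuroblasts. Over 15 muscle markers it was 138 and 223 CPM in neurons and 145 and 169 CPM in type I neuroblasts. Over 19 hemocyte and fat body markers it was 273 and 398 CPM in neurons and 299 and 287 CPM in type I neuroblasts. None of these markers was at 0. Whether other cell types in the isolates bear on the H3K27me3 values was not tested.

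The neuron libraries differed widely in how strongly the mark was concentrated. Over the median Hox gene, H3K27me3 per kilobase was 17.1 and 3.10 times that over the median ribosomal protein gene in the neuron libraries, against 7.98 and 5.04 times in the type I libraries. The 4 RNAi libraries lay between 4.34 and 7.60. The 10% of genes with the densest mark in the RNAi libraries took 31.6% and 16.1% of the counts of the neuron libraries, against 25.8% and 20.1% of those of the type I libraries. By these measures they are the extremes of the 8 libraries. The median density of that 10% over that of the sparser genes was 4.46 and 1.56 in the neuron libraries and 4.95 and 3.02 in the type I libraries, with up to 7.06 in an RNAi library, so by this ratio neuron replicate 1 is not the highest. Results below therefore come with both neuron values. The part that this difference between libraries has in single genes was not tested.

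No gene passed the threshold in the edgeR quasi-likelihood test of all 8 libraries, in either direction (0.0% of 14182 genes, smallest adjusted p = 0.53), and 559 genes were higher (3.94%) and 718 lower (5.06%) in neurons at an unadjusted p under 0.05. The 4 libraries fitted by themselves gave 7 genes called higher (0.0494%) and 4 called lower (0.0282%). DESeq2 called 41 higher (0.289%) and 8 lower (0.0564%). A count that needs no model of the spread was made as well: in 35 genes the lower neuron library held at least 2 times the CPM of the higher type I library (0.247%), and in 11 genes the higher neuron library held at most 1/2 of the lower type I library (0.0776%). With library totals these counts were 33 and 33. By the weaker measure of libraries that do not overlap, 2663 genes lay higher in neurons (18.8%) and 3393 lower (23.9%). Scaled by library totals instead, which shifts the median gene by -0.31 (log2) in neuron replicate 1 and 0.26 in neuron replicate 2, these shares were 7.83% and 27.95%.

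A stretch of chromosome 3R upstream of the neuronal fate gene pros held the gene with the highest log2 fold change. CR43283 is the long non-coding RNA gene cherub of neuroblasts (3R: 7073825 to 7081845). It held 798 and 156 CPM in neurons, against 42.2 and 23.3 CPM in type I neuroblasts. Both neuron libraries were far above both type I libraries, the lower neuron library being 3.70 times the higher type I library. The log2 fold change was 3.86 (SE 0.74, adjusted p = 0.53 with 8 libraries and 0.65 with 4, edgeR). Only DESeq2 called the gene, with an adjusted p of 8.4e-07. The 4 RNAi libraries held 25.7 to 31.8 CPM, near the type I level.

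Next to it CR31386, another long non-coding RNA gene (3R: 7095137 to 7131330), held 4401 and 821 CPM in neurons, against 218 and 197 CPM in type I neuroblasts. Here too the groups were apart in every library, with a log2 fold change of 3.65 (SE 0.70, adjusted p = 0.53, edgeR). The gene CG5214, on the far side of cherub, held 41.4 and 23.3 CPM in neurons and 8.70 and 12.9 CPM in type I neuroblasts. With CG17734 these are 4 consecutive genes over 63.4 kb whose neuron libraries all lay at least 1.5 times above the type I libraries, as in 1.44% of all genes. The gene pros, which encodes a homeodomain factor that ends self-renewal, starts 24.3 kb beyond CR31386. It held 1613 and 802 CPM in neurons and 687 and 614 CPM in type I neuroblasts, again without overlap but with a smaller log2 fold change of 0.89 (SE 0.35, adjusted p = 0.53, edgeR).

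On chromosome 4 the zinc finger gene Lin29, also named dati (4: 396266 to 416428), held 2180 and 470 CPM in neurons, against 100 and 94.0 CPM in type I neuroblasts. The lower neuron library exceeded the higher type I library 4.68 times (log2 fold change 3.77, SE 0.75, adjusted p = 0.53, edgeR). CR43437, a non-coding gene 30.3 kb away, held 59.8 and 12.3 CPM in neurons and 2.16 and 3.68 CPM in type I neuroblasts. At both genes neuron replicate 1 was highest and both type I libraries were below both neuron libraries.

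A further stretch lay on chromosome 3L between the replication licensing gene Cdc6 and the Hes-family gene h. The cuticle protein gene Cpr66D (3L: 8633574 to 8636684) held 282 and 57.5 CPM in neurons, against 18.8 and 15.6 CPM in type I neuroblasts. CG13305 held 195 and 34.3 CPM in neurons, against 13.2 and 10.5 CPM in type I neuroblasts. CG6486, which encodes the peroxisomal import receptor Pex7, held 504 and 89.8 CPM in neurons, against 40.7 and 33.5 CPM in type I neuroblasts. These 3 genes are consecutive over 10.5 kb and were at least 2-fold apart in every library. Arr2, a photoreceptor arrestin gene that lies within CG6486 and so shares its reads, held 214 and 35.3 CPM in neurons, against 21.9 and 14.3 CPM in type I neuroblasts. The gene h, 24.7 kb further on, held 74.1 and 34.7 CPM in neurons and 47.5 and 40.7 CPM in type I neuroblasts, so the groups overlap there.

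**Figure D1:**
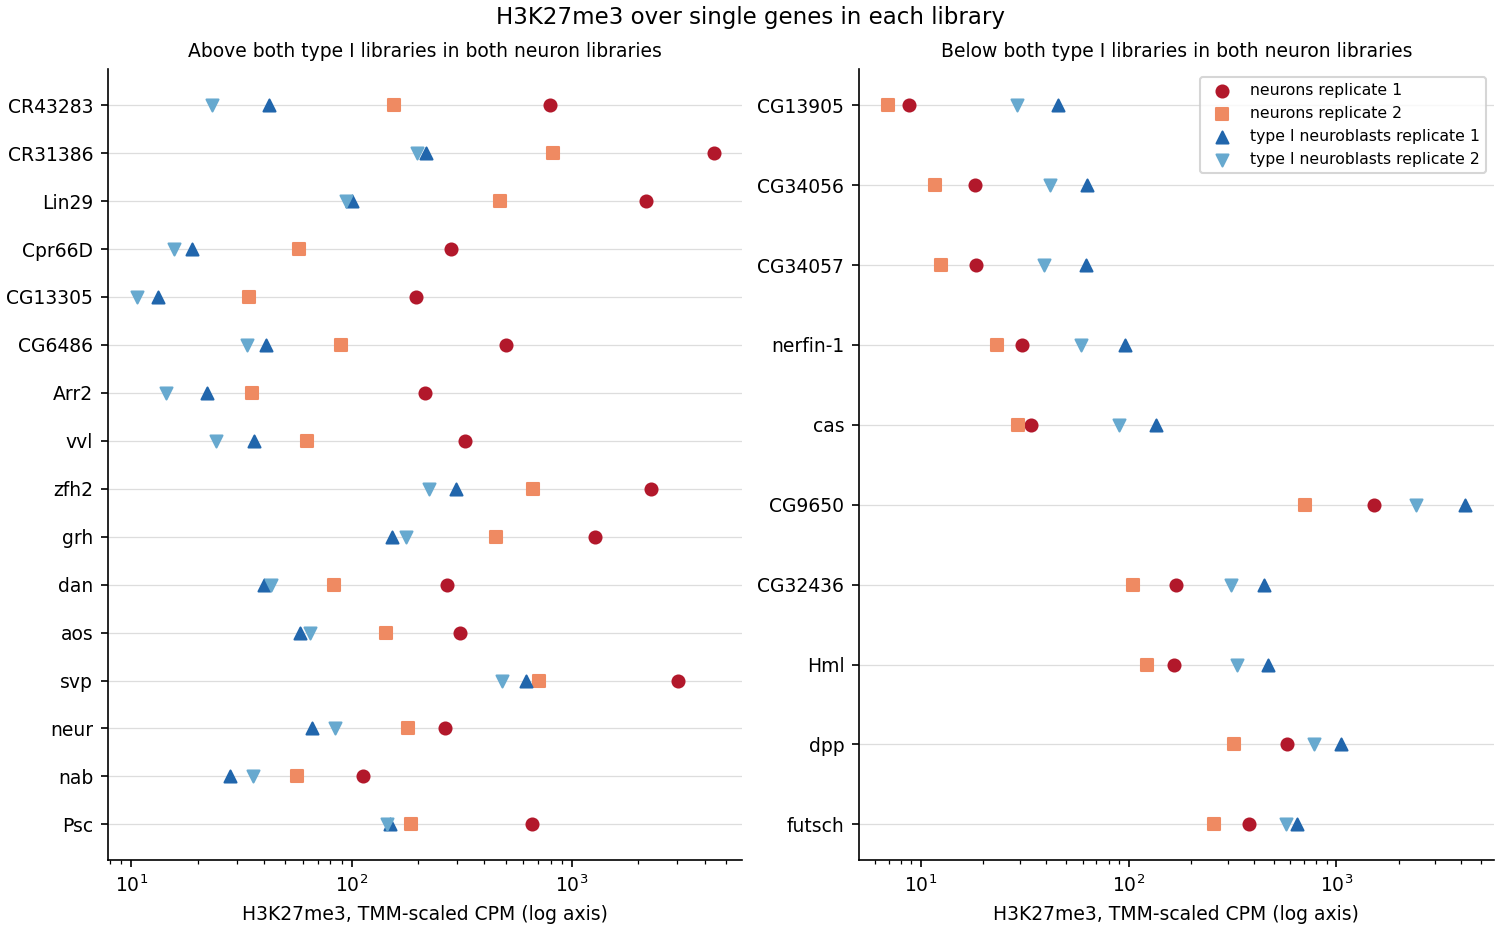
H3K27me3 in TMM-scaled CPM (log axis) for single genes, with 1 point per library: 2 neuron libraries and 2 type I neuroblast libraries. In the left panel both neuron points lie right of both type I points, as at CR43283 with 798 and 156 CPM against 42.2 and 23.3 CPM; in the right panel they lie left of them, as at cas with 33.9 and 29.5 CPM against 135 and 89.5 CPM.

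Transcription factor genes of neuroblasts and their temporal series were next. The gene grh, whose Grainyhead factor marks late larval neuroblasts, held 1273 and 453 CPM in neurons, against 153 and 177 CPM in type I neuroblasts (2R: 13690294 to 13729584). The groups were apart at least 2.56 times (log2 fold change 2.39, SE 0.50, adjusted p = 0.53 with 8 libraries and 0.14 with 4, edgeR). DESeq2 gave an adjusted p of 0.0019 at grh. Its neighbour on one side, CG5036, overlapped with 49.8 and 40.9 CPM in neurons and 41.1 and 44.0 CPM in type I neuroblasts. On the other side olf186-F, the fly Orai calcium channel gene, held 150 and 144 CPM in neurons and 95.9 and 100.5 CPM in type I neuroblasts, higher in both neuron libraries by a smaller ratio. The gene nab, a transcriptional cofactor gene, held 112 and 56.7 CPM in neurons and 28.1 and 35.7 CPM in type I neuroblasts. At dan, a Pipsqueak-domain factor gene of the temporal list, neurons held 270 and 83.1 CPM and type I neuroblasts 40.0 and 43.0 CPM; its window overlaps that of lobo, and Bili and danr beside it also lay higher in both neuron libraries.

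The nuclear receptor gene svp, a switching factor of the temporal series, held 3041 and 711 CPM in neurons and 618 and 481 CPM in type I neuroblasts. The groups did not overlap, but the lower neuron library was only 1.15 times the higher type I library. The gene hth, which encodes a homeodomain partner of the Hox proteins, had 13624 and 2877 CPM in neurons and 2828 and 1969 CPM in type I neuroblasts. Both differences were larger in neuron replicate 1: in the fit without neuron replicate 2 the log2 fold change was 2.47 at svp and 2.51 at hth (adjusted p = 0.0015 and 0.0031, edgeR), and in the fit without neuron replicate 1 it was 0.42 and 0.31 (adjusted p = 0.34 and 0.40, edgeR).

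Among factors of neuronal differentiation, vvl, a POU-domain gene, held 327 and 62.8 CPM in neurons, against 36.2 and 24.1 CPM in type I neuroblasts. The zinc finger homeodomain gene zfh2 on chromosome 4 held 2297 and 666 CPM in neurons, against 297 and 225 CPM in type I neuroblasts (edgeR, log2 fold change 2.51, SE 0.52, adjusted p = 0.53). The homeodomain gene ct held 2004 and 653 CPM in neurons, against 410 and 381 CPM in type I neuroblasts. All 3 were higher in both neuron libraries, and all 3 passed the threshold in neuron replicate 1 alone.

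Signalling genes added a pair with smaller ratios and closer neuron libraries. The gene aos, whose secreted product Argos inhibits the EGF receptor (3L: 16463479 to 16476801), held 309 and 143 CPM in neurons, against 58.4 and 64.5 CPM in type I neuroblasts. Its log2 fold change was 1.88 (SE 0.35, adjusted p = 0.53 in the fit of 8 libraries and 0.017 in the fit of these 4, edgeR). At neur, a ubiquitin ligase gene needed in cells that send the Notch ligand Delta, neurons held 266 and 179 CPM and type I neuroblasts 66.2 and 83.7 CPM (log2 fold change 1.57, SE 0.39, adjusted p = 0.53 and 0.023 in the same fits, edgeR). By DESeq2 the adjusted p was 0.0031 at aos and 0.052 at neur. The windows of aos and neur overlap other genes, so part of their reads is shared. The FGF ligand gene pyr held 455 and 162 CPM in neurons and 123 and 123 CPM in type I neuroblasts, and the cell death gene rpr held 46.0 and 13.4 CPM in neurons and 10.3 and 8.74 CPM in type I neuroblasts.

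The genes called higher in the fit of 4 libraries were CG43108, aos, CG43337, CG42262, Pkcdelta, neur and Hcf, named here by that call. The order of the neuron libraries was turned round at Pkcdelta, a protein kinase C gene on chromosome X. It held 860 and 1850 CPM in neurons, against 504 and 332 CPM in type I neuroblasts (adjusted p = 0.033, edgeR, 4 libraries). CG42262, also on chromosome X, held 193 and 398 CPM in neurons and 113 and 65.7 CPM in type I neuroblasts. At both genes neuron replicate 2 was the highest of the 4 libraries, and the RNAi libraries reached 940 and 287 CPM.

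Lower H3K27me3 in neurons covered a run of genes that ends with nerfin-1, a zinc finger gene needed for neuronal differentiation and axon guidance (3L: 909139 to 912319). It held 30.5 and 23.1 CPM in neurons, against 95.7 and 58.9 CPM in type I neuroblasts (log2 fold change -1.53, SE 0.45, adjusted p = 0.53, edgeR). CG13905, 5.33 kb before it, held 8.78 and 6.92 CPM in neurons, against 45.9 and 28.9 CPM in type I neuroblasts, and this was the lowest log2 fold change of all genes tested (-2.25, SE 0.60, adjusted p = 0.53 with 8 libraries and 0.018 with 4, edgeR). CG34056 held 18.2 and 11.7 CPM in neurons and 63.1 and 41.9 CPM in type I neuroblasts, and CG34057 held 18.5 and 12.4 CPM in neurons and 62.0 and 39.1 CPM in type I neuroblasts. These 4 genes are consecutive over 16.4 kb, and the gene before them, CG13907, lay the other way with 28.8 and 33.9 CPM in neurons and 17.8 and 24.2 CPM in type I neuroblasts. Beyond nerfin-1 the glucose transporter gene Glut1 held 1071 and 750.5 CPM in neurons and 1288 and 1084 CPM in type I neuroblasts, so the groups were barely apart there.

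The gene cas encodes Castor, a zinc finger factor of the temporal series (3R: 1538664 to 1543022). It held 33.9 and 29.5 CPM in neurons, against 135 and 89.5 CPM in type I neuroblasts. The neuron libraries were close together and both were under 1/2 of either type I library (log2 fold change -1.83, SE 0.43, adjusted p = 0.53 with 8 libraries and 0.038 with 4, edgeR). The gene CG9650, the fly member of the Bcl11 zinc finger family named Cph, held 1519 and 710 CPM in neurons, against 4162 and 2420 CPM in type I neuroblasts. CR32730, whose window lies inside it and shares its reads, followed the same order of libraries (log2 fold change -1.93, SE 0.50). CG11068, elsewhere on chromosome X, held 29.9 and 11.8 CPM in neurons, against 110 and 55.7 CPM in type I neuroblasts.

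The hemocyte gene Hml, encoding a clotting protein, held 165 and 123 CPM in neurons, against 470 and 333 CPM in type I neuroblasts (log2 fold change -1.48, SE 0.27, adjusted p = 0.53 with 8 libraries and 0.038 with 4, edgeR). CG32436 held 170 and 105 CPM in neurons, against 450 and 310 CPM in type I neuroblasts. With ebd2, CG12971 and CG32437 it forms 4 consecutive genes at least 1.5 times lower in neurons, as in 1.81% of all genes. The window of ebd2 lies inside that of CG32436, so the 2 share reads. In the RNAi libraries CG32436 held 153 to 205 CPM and ebd2 40.0 to 47.8 CPM. There CG12971 held 10.4 to 22.2 CPM and CG32437 35.7 to 56.0 CPM. The BMP ligand gene dpp held 578 and 320 CPM in neurons, against 1051 and 782 CPM in type I neuroblasts. Among genes that neurons use, futsch, which encodes a microtubule protein of axons, held 379 and 259 CPM in neurons, against 645 and 570 CPM in type I neuroblasts. Other genes of the neuronal function list lay the other way. At unc-13 neurons held 216 and 352 CPM and type I neuroblasts 133 and 153 CPM, and at shi 56.4 and 94.8 CPM against 32.9 and 47.1 CPM. Of the 40 genes on that list 5 were higher and 15 lower without overlap. Ank2, a neuronal ankyrin gene chosen here after its values were seen, held 632 and 638 CPM in neurons, against 1339 and 1254 CPM in type I neuroblasts.

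**Figure D2:**
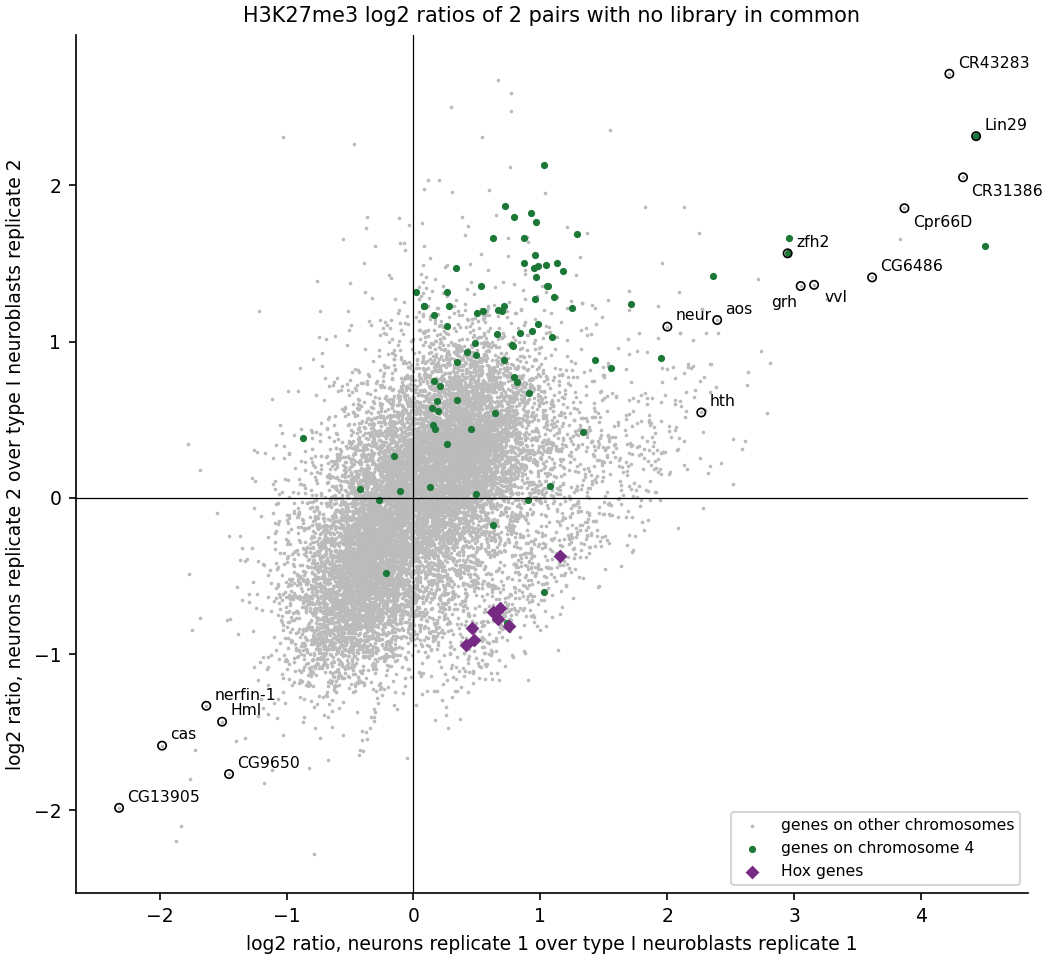
Log2 ratio of H3K27me3, with 0.5 CPM added to each value, of neuron replicate 2 over type I replicate 2 (vertical axis) against neuron replicate 1 over type I replicate 1 (horizontal axis) for 14182 genes, so that no library is on both axes. CR43283, Lin29 and CR31386 are at the upper right, CG13905 and cas at the lower left, and the 8 Hox genes (diamonds) lie right of 0 on one axis and below 0 on the other; Pearson's r across genes, which are not independent replicates, was 0.50, and with the type I libraries exchanged between the axes it was -0.12.

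The Hox genes, the best known Polycomb targets, told the neuron libraries apart rather than the groups. Ubx held 10374 and 1969 CPM in neurons and 6164 and 3484 CPM in type I neuroblasts. Neuron replicate 1 was thus the highest and neuron replicate 2 the lowest of the 4 libraries, and the log2 fold change was 0.36 with an SE of 0.68. All 8 Hox genes followed this order, as did 69 of 76 Polycomb target homeobox and patterning factors such as en, inv, eve and salm, against 9.91% of all genes tested. The median log2 ratio to the type I mean was 1.03 in neuron replicate 1 and -1.32 in neuron replicate 2 for the Hox genes, and 1.05 and -1.16 for the 76 factors. None of the 8 and none of the 76 was 2-fold apart between the groups.

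A second scale was chosen after these values were seen: the density of the mark at a gene, in CPM per kilobase, as a percent of the median Hox gene of the same library. Hox genes lie near 100% on it by construction. The median of all genes was at 6.37% and 34.2% in neurons, against 11.1% and 19.7% in type I neuroblasts, so this scale spreads the neuron libraries apart at most genes. At several, but not all, of the loci with the highest fold changes they lay close to each other. CR31386 was at 90.5% and 89.0% of the Hox density in neurons, against 7.65% and 12.7% in type I neuroblasts. Lin29 was at 80.4% and 91.5% in neurons, against 6.32% and 10.8% in type I neuroblasts. CR31386 and Lin29 thus carried the mark nearly as densely as Hox genes in both neuron libraries and a small share of it in both type I libraries.

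On the same scale cherub was at 74.0% and 76.4% in neurons, against 6.68% and 6.75% in type I neuroblasts, CG6486 at 97.0% and 91.2% in neurons, against 13.4% and 20.1% in type I neuroblasts, and vvl at 55.5% and 56.4% in neurons, against 10.5% and 12.8% in type I neuroblasts. The gene hth, whose neuron libraries lay far apart on the CPM scale though both above the type I libraries, was at 78.7% and 87.7% in neurons. In type I neuroblasts it was at 27.9% and 35.5%. At other genes this scale separates the neuron libraries instead. They were at 44.3% and 67.8% at zfh2, against 9.79% and 13.5% in type I neuroblasts. At grh they were at 24.1% and 45.3%, against 4.95% and 10.4%, and at aos at 17.3% and 42.0%, against 5.57% and 11.2%. The gene dpn was at 4.78% and 26.3% in neurons, against 6.31% and 11.9% in type I neuroblasts. The gene cas was at 5.78% and 26.6% in neurons, against 39.4% and 47.7% in type I neuroblasts. In 39 genes the neuron libraries were 2-fold above the type I libraries on this scale, and in 4 genes 2-fold below.

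**Figure D3:**
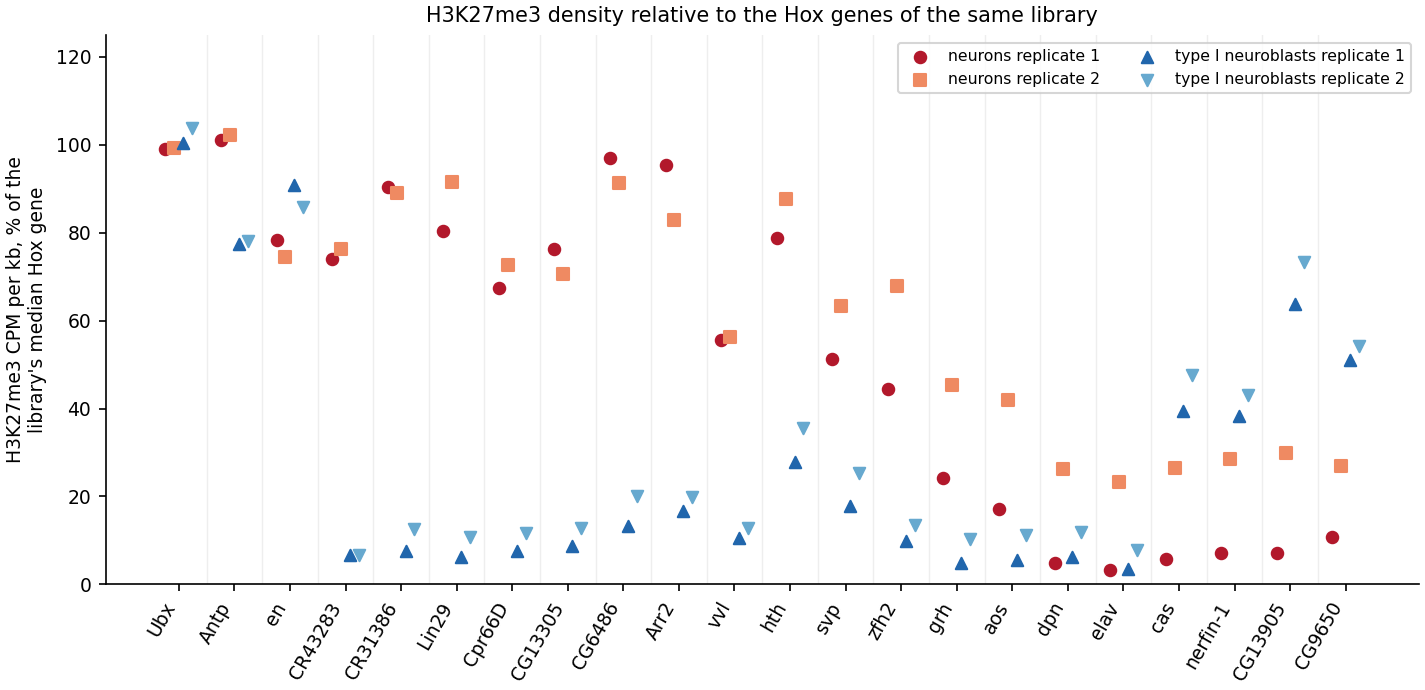
H3K27me3 per kilobase as a percent of the median Hox gene of the same library (vertical axis) for single genes, with 1 point per library in 2 neuron and 2 type I neuroblast libraries. The neuron points of CR43283, CR31386, Lin29, CG6486 and hth lie together between 74.0% and 97.0%, above the type I points, while those of cas, nerfin-1, CG13905 and CG9650 lie below the type I points.

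Across the genome the differences followed how densely the mark covers a gene elsewhere. Genes were placed in 10 classes by mean CPM per kilobase in the 4 RNAi libraries, which are not in the contrast. The median log2 fold change of neurons over type I neuroblasts was 0.49 in the sparsest class and -0.46 in class 9, and in the densest class it was -0.12. In neuron replicate 1 the class medians stayed between -0.23 and 0.17. In neuron replicate 2 they ran from 0.70 in the sparsest to -0.80 in the densest class. In the sparsest class 42.6% of 1419 genes were higher in neurons without overlap, against 1.13% lower, while in class 9 these shares were 1.13% and 58.5%. Ratios between the 2 neuron libraries and between the 2 type I libraries also ran with density: the class medians of replicate 1 over replicate 2 were -0.53 in the sparsest and 0.90 in the densest class for neurons, and -0.41 and 0.39 for type I neuroblasts.

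**Figure D4:**
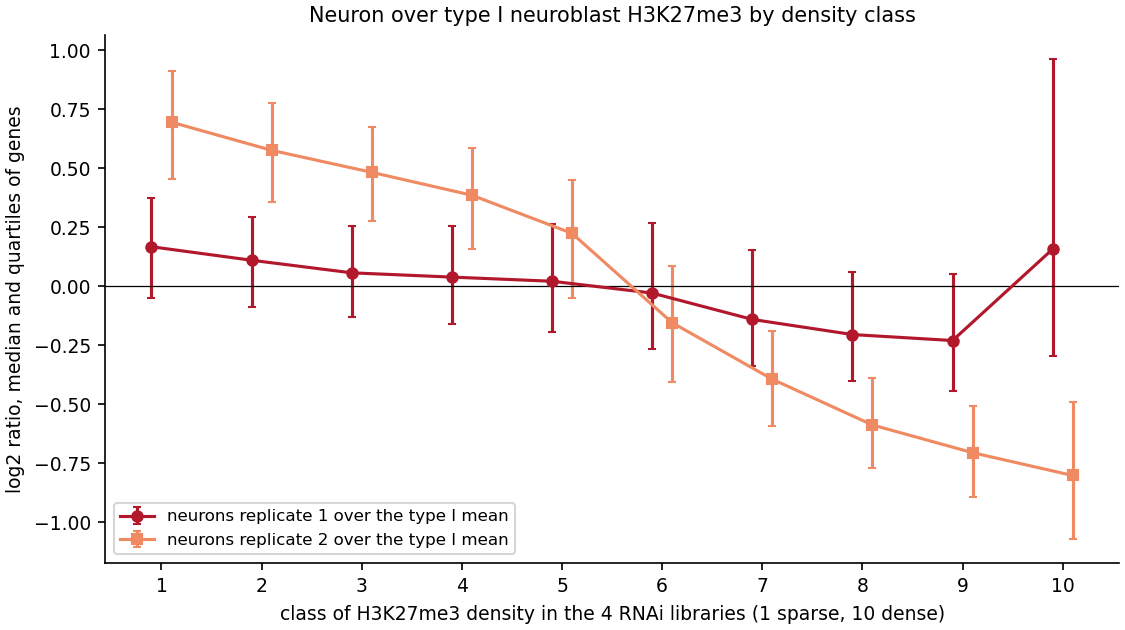
Log2 ratio of each neuron library to the mean of the type I neuroblast libraries (vertical axis; points are medians over genes and bars the quartiles) in 10 classes of H3K27me3 density in the RNAi libraries. Neuron replicate 2 falls steadily with density from 0.70 to -0.80, while the medians of neuron replicate 1 stay within 0.23 of 0.

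Of the 35 genes that were 2-fold higher, 24 were in the sparsest class and none in the densest, and of the 11 that were 2-fold lower, 6 were in the densest class and none in the sparsest. Of the 35, the 9 with log2 fold changes above 2.5 included cherub, CR31386, Lin29, CR43437, Cpr66D, CG13305, CG6486 and zfh2. The ninth, CG43130, held 1.27 and 2.84 CPM in neurons and 0.360 and 0.362 CPM in type I neuroblasts. It is 1 of 10 among the 35 genes whose group means both stayed under 10 CPM, as they did in 3 of the 11. Windows of CG42560 and CG42559 have equal counts and stand for 1 measurement.

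Groups of genes were described by how many members lay outside both type I libraries in both neuron libraries. Of 32 neuroblast transcription and polarity factors, 14 were higher without overlap and 2 lower, of which grh and nab led the higher and cas the lower ones. Of 24 temporal patterning factors 9 were higher and 2 lower, and of 25 genes of the Notch pathway and E(spl) complex 9 were higher and 1 lower. The shares of higher genes, 43.8%, 37.5% and 36.0%, stand against 18.8% of all genes, and the first 2 lists both hold grh and cas. The median densities of the lists in the RNAi libraries, 7.02, 15.3 and 13.6 CPM per kilobase, lie in classes 4, 9 and 8. In those classes 26.7%, 1.13% and 2.61% of genes were higher without overlap. The members are spread over classes, with 5 of 32, 11 of 24 and 8 of 25 in class 10, so these class shares are a loose measure. In the Notch group neur was followed by HLHmgamma, a Notch target of the E(spl) complex, with 26.3 and 9.86 CPM in neurons and 8.77 and 5.18 CPM in type I neuroblasts.

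Members of these groups that define neuroblasts differed less. The self-renewal factor gene dpn held 21.6 and 22.5 CPM in neurons and 16.7 and 17.2 CPM in type I neuroblasts. The polarity adaptor gene mira held 17.1 and 18.1 CPM in neurons and 22.1 and 23.1 CPM in type I neuroblasts. At klu neurons held 335 and 218 CPM and type I neuroblasts 150 and 183 CPM, a log2 fold change of 0.73 (SE 0.28, adjusted p = 0.53, edgeR). At dpn and klu both neuron libraries were above both type I libraries, at mira both were below, and no test passed. The group medians in neuron replicate 1 and replicate 2 were 0.68 and 0.07 for the neuroblast factors, 0.91 and -0.69 for the temporal factors and 0.80 and -0.23 for the Notch group, so the sign differed between the neuron libraries for the temporal group, and with TMM scaling for the Notch group (0.04 in replicate 2 with abundance-trend offsets).

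Of 23 Polycomb group genes 8 were higher without overlap and 1 lower, or 3 and 0 when libraries were scaled by their totals. Higher genes were thus 34.8% against 18.8% of all genes with TMM scaling. The median density of the 23 genes in the RNAi libraries, 5.34 CPM per kilobase, lies in class 2. In that class 34.9% of genes were higher without overlap with TMM scaling, so the share of the Polycomb group does not exceed that of the class of its median density. With library totals the share of all genes was 7.83%. Psc, which encodes a PRC1 subunit, held 656 and 186 CPM in neurons and 149 and 144 CPM in type I neuroblasts, and ph-p, encoding another PRC1 subunit, held 146 and 84.0 CPM in neurons and 70.7 and 66.2 CPM in type I neuroblasts. Both had non-overlapping groups, with neuron replicate 1 well above the rest. Trithorax group genes gave 5 higher and 0 lower of 20 with TMM scaling, against 18.8% higher and 23.9% lower of all genes. This list has a median density of 4.786 CPM per kilobase in the RNAi libraries, at the upper edge of class 1. In classes 1 and 2, 42.6% and 34.9% of genes were higher without overlap, larger shares than in the list. When libraries were scaled by their totals the list gave 0 and 0, against 7.83% and 27.95% of all genes.

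Genes of neuronal function tended the other way: 15 of 40 were lower without overlap (37.5%, against 23.9% of all genes) and 5 were higher. Their median density in the RNAi libraries, 10.7 CPM per kilobase, lies in class 7, where 45.3% of genes were lower without overlap. The median log2 ratio of the 40 genes was -0.15 in neuron replicate 1 and -0.20 in neuron replicate 2. With offsets that remove the trend with abundance, 13 were higher and 12 lower, so the direction of this group depends on the scaling. At brp, a scaffold gene of the presynaptic active zone, neurons held 425 and 327 CPM and type I neuroblasts 614 and 470 CPM. At n-syb, a synaptic vesicle gene, neurons held 84.2 and 65.5 CPM and type I neuroblasts 104 and 94.0 CPM. The vesicle gene Syt1 overlapped, with 190 and 185 CPM in neurons and 241 and 169 CPM in type I neuroblasts. The gene elav held 46.6 and 64.1 CPM in neurons and 30.3 and 36.3 CPM in type I neuroblasts, higher in both neuron libraries.

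Of 28 neuronal differentiation factors 7 were higher and 2 lower without overlap, with group medians of 1.26 in neuron replicate 1 and -0.55 in neuron replicate 2. Axon guidance genes gave 7 higher and 4 lower of 33, and 18 higher and 1 lower with the offsets that remove the abundance trend, and 8 and 9 with library totals. With TMM scaling the share of higher axon guidance genes, 21.2%, is near the 18.8% of all genes. With the trend offsets 54.5% were higher and 3.03% lower, against 21.6% and 21.8% of all genes. With library totals 24.2% were higher and 27.3% lower, against 7.83% and 27.95% of all genes. Signalling ligands and segment polarity genes gave 4 and 4 of 31 (12.9% each), but 3 and 10 with library totals (9.68% and 32.3%) and 9 and 2 with the trend offsets (29.0% and 6.45%). Of the 4 apoptosis genes of the H99 region 1 was higher, rpr, and 3 were with library totals and 2 with the trend offsets. Cell cycle and DNA replication genes gave 11 higher (28.9%) and 4 lower (10.5%) of 38, and 2 and 3 with library totals (5.26% and 7.89%). Their median density in the RNAi libraries, 5.62 CPM per kilobase, lies in class 2, where 34.9% of genes were higher with TMM scaling. CycE, the cyclin that starts replication, held 107 and 154 CPM in neurons and 73.8 and 87.0 CPM in type I neuroblasts, and Cdc6 held 32.2 and 20.6 CPM in neurons and 15.4 and 15.4 CPM in type I neuroblasts.

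Among markers of other cell types and tissues, some of which carry H3K4me3 in both cell types (crq, a hemocyte receptor gene, held 180 and 217 CPM in neurons and 223 and 177 CPM in type I neuroblasts), hemocyte and fat body markers were lower without overlap in 10 of 19 and higher in 2, muscle markers lower in 5 of 15 and higher in 2 (3 and 6 with abundance-trend offsets), and photoreceptor genes lower in 5 of 16 and higher in 2. These are 52.6%, 33.3% and 31.3% lower, against 23.9% of all genes. Their median densities in the RNAi libraries were 13.4, 11.3 and 13.4 CPM per kilobase, within density classes 8, 7 and 8. Of all genes in classes 7 and 8, 45.3% and 55.2% were lower without overlap. None of these shares exceeds that of the class that holds the median density of its list. The members are spread over classes, with 5 of 19, 2 of 15 and 5 of 16 in class 10, where 30.5% of genes were lower. Whether density accounts for these shares was not tested. Germline markers gave 4 higher and 2 lower of 14 (28.6% and 14.3%), and glia markers 3 and 3 of 14 (21.4% each). Of all genes 18.8% were higher and 23.9% lower. With library totals the germline markers gave 2 and 4 (14.3% and 28.6%, against 7.83% and 27.95% of all genes). Cytoplasmic ribosomal protein genes, which are active in all cells, were lower in 12 of 30 (40.0%, against 23.9% of all genes) and higher in 2, and with library totals in 8 and 1 (26.7%, against 27.95% of all genes). Their median density in the RNAi libraries, 7.86 CPM per kilobase, lies in class 5, where 11.8% of genes were lower without overlap. The median log2 ratios of the 30 ribosomal protein genes were -0.25 in neuron replicate 1 and -0.16 in neuron replicate 2 (0.09 there with library totals). RpL7, which encodes a protein of the large subunit, held 6.63 and 8.17 CPM in neurons and 12.4 and 10.6 CPM in type I neuroblasts.

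**Figure D5:**
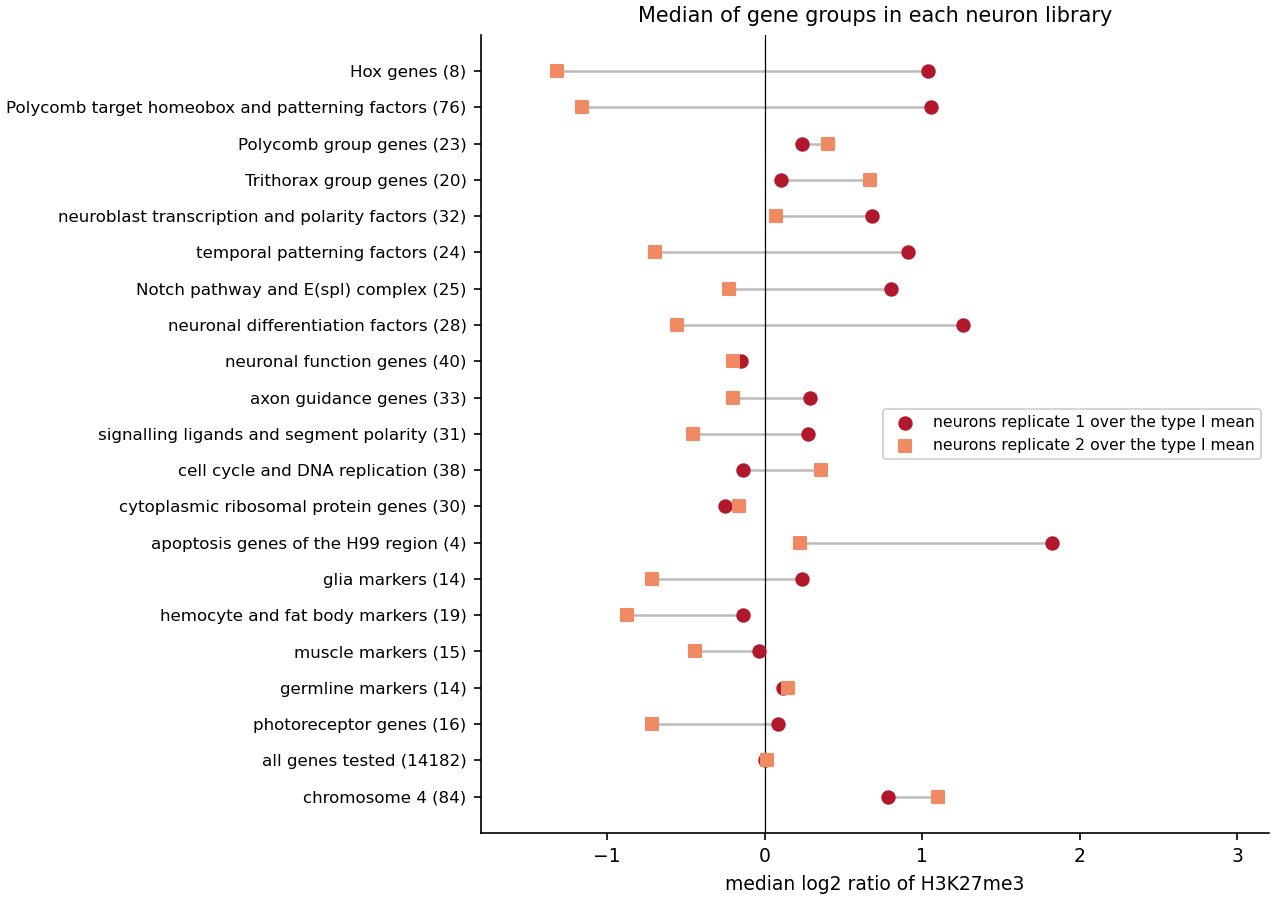
Median log2 ratio of H3K27me3 in each neuron library to the mean of the type I neuroblast libraries (horizontal axis) for gene groups, with the number of genes tested in brackets; circles are neuron replicate 1 and squares neuron replicate 2. The Hox genes and the 76 patterning factors lie on opposite sides of 0 in the 2 libraries, the neuronal function and ribosomal protein genes lie below 0 in both with TMM scaling (with library totals they are at 0.06 and 0.09 in replicate 2), and chromosome 4 lies above 0 in both at 0.78 and 1.10.

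Chromosome 4, a small chromosome largely packed as heterochromatin, was higher as a whole. Of its 84 genes 68 lay higher in both neuron libraries without overlap (81.0%, against 18.8% of all genes) and 1 lower (1.19%, against 23.9%). The median log2 fold change of the chromosome was 0.91, with 0.78 in neuron replicate 1 and 1.10 in neuron replicate 2. On the log2 CPM scale its median gene exceeded that of chromosomes 2 and 3 by 1.89 and 2.15 in neurons, against 1.12 and 1.07 in type I neuroblasts. The RNAi libraries ranged from 1.07 to 1.93 on this measure, so 1 brat RNAi library lay within the range of the neurons. Of the 35 genes that were 2-fold higher 10 lie on this chromosome, which holds 84 of the 14182 genes tested. At plexA, a semaphorin receptor gene, neurons held 142 and 159 CPM and type I neuroblasts 62.6 and 57.6 CPM, and at Ephrin, a ligand gene of the Eph receptor, 42.9 and 56.4 CPM in neurons and 19.3 and 19.6 CPM in type I neuroblasts. Hcf, a host cell factor gene, held 159 and 153 CPM in neurons and 48.1 and 64.2 CPM in type I neuroblasts. Unlike Lin29 and zfh2, these genes had close neuron libraries. By density plexA and Ephrin are in class 1 and Hcf in class 2. In those classes 42.6% and 34.9% of all genes were higher without overlap, and the medians in neuron replicate 2 were 0.70 and 0.58. For chromosome 4 the direction held under each scaling tried, with 50 higher (59.5%, against 7.83% of all genes) and 0 lower by library totals at the least.

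Taken alone against the type I libraries, neuron replicate 1 had 130 genes called higher (0.917%) and 0 called lower (0.0%) by edgeR, with the lone library assumed to vary like the other groups. Their log2 fold changes ran from 1.06 to 4.61. The highest were CR43283, Lin29, CR31386, CR43437, CG13305 and Cpr66D, and grh, svp, hth, ct, aos, Psc, rpr and pyr were among them. Of the 130 genes 60 lie in 21 runs of at least 2 consecutive genes. Chosen from these runs after their values were seen, the motor neuron homeodomain gene Lim3 held 2118 and 475 CPM in neurons and 508 and 351 CPM in type I neuroblasts, and the vesicular glutamate transporter gene VGlut held 738 and 227 CPM in neurons and 241 and 164 CPM in type I neuroblasts. Gad1, which encodes the enzyme that makes GABA, held 1110 and 256 CPM in neurons and 272 and 196 CPM in type I neuroblasts. At these 3 genes neuron replicate 2 lay between the type I libraries.

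The 130 genes were then set against the RNAi libraries, which the call did not compare them with. Their median log2 ratio to the RNAi mean was 2.06 in neuron replicate 1, the library that chose them, and 0.28 in neuron replicate 2, with quartiles of -0.05 and 0.61. Over all genes tested these medians were -0.03 and 0.02. Scaled by library totals, neuron replicate 1 alone gave 56 genes higher and 53 lower, so the absence of lower calls rests on the scaling. Neuron replicate 2 alone gave 0 calls in either direction (0.0%, smallest adjusted p = 0.067, edgeR).

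H3K4me3 at the starts of the same genes was read from other libraries of the same groups, where edgeR called 63 genes lower (0.444%) and 1 higher (0.00705%) in neurons; at an unadjusted p under 0.05 these shares were 5.19% and 2.04%. At CR31386 it was 5.88 and 14.5 CPM in neurons, against 155 and 165 CPM in type I neuroblasts (log2 fold change -3.97, SE 0.75, adjusted p = 0.00065, edgeR), where H3K27me3 was higher. At CG6486 it fell to 11.8 and 25.3 CPM in neurons, against 227 and 217 CPM in type I neuroblasts (log2 fold change -3.59, SE 0.74, adjusted p = 0.0019, edgeR). These are the 2 of the 35 genes that were called lower in H3K4me3. At cherub H3K4me3 averaged 7.15 CPM in neurons and 42.2 CPM in type I neuroblasts (log2 fold change -2.56, SE 0.72, adjusted p = 0.062, edgeR), and at aos 10.1 and 13.9 CPM in neurons and 55.8 and 93.2 CPM in type I neuroblasts (adjusted p = 0.053, edgeR). In all 4 genes both neuron libraries were below both type I libraries.

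At Arr2, whose reads lie within CG6486, H3K4me3 was lower as well (log2 fold change -3.28, SE 0.73, adjusted p = 0.010, edgeR), and of the 204 genes that were 1.5-fold higher in H3K27me3, 11 were called lower in H3K4me3. At grh and Lin29 it passed no test. At grh H3K4me3 at the annotated start was 3.83 and 11.3 CPM in neurons and 5.39 and 11.5 CPM in type I neuroblasts, and at Lin29 15.7 and 18.4 CPM in neurons and 39.8 and 17.3 CPM in type I neuroblasts. A start within the gene model would not be in these windows. Neuroblast genes called lower in H3K4me3 differed among themselves in H3K27me3. At wor H3K4me3 was 24.1 and 24.4 CPM in neurons, against 171 and 199 CPM in type I neuroblasts (adjusted p = 0.025, edgeR), while its H3K27me3 overlapped, with 44.2 and 18.0 CPM in neurons and 16.6 and 19.3 CPM in type I neuroblasts. At CycE and dpn, with adjusted p of 0.0072 and 0.021 for lower H3K4me3 (edgeR), H3K27me3 was higher without overlap, and at mira (adjusted p = 0.033, edgeR) it was lower without overlap. Over the 35 genes the median H3K4me3 log2 fold change was 0.24, equal to that of all genes tested, and over the 11 genes with less H3K27me3 it was 0.58. At nerfin-1 H3K4me3 was 145 and 63.3 CPM in neurons and 58.4 and 17.8 CPM in type I neuroblasts (log2 fold change 1.46, SE 0.69, adjusted p = 0.61, edgeR), both neuron libraries being above both type I libraries.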

How the data were processed

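Count tables were deposited by the authors, 1 per library: each count is a whole number of reads over a gene model for H3K27me3, or over 501 bases at its start for H3K4me3, without normalization. Per the submitters' processing notes, the tools were bedtools 2.25.0, deepTools 2.5.0.1 and Bowtie2 2.2.4 on build dm3. Counting settings and duplicate handling are not given in the sources used here, and inputs are not analysed here. A library of strong enrichment puts more of its reads into marked domains, so CPM depends on enrichment as well as on the mark. Windows of 5374 tested genes overlap another gene and share its reads, with no strand in ChIP.

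Samples were grouped by title. In R 4.3.3, edgeR 4.0.16 (quasi-likelihood, robust, TMM, default filter by group) was fitted to 8 H3K27me3 libraries with 4 residual degrees of freedom, and p values were adjusted by Benjamini-Hochberg over all genes (threshold 0.05). SE is the absolute log2 fold change over the square root of F. The fits were run on simulated counts in which all libraries had the same enrichment. The neuron libraries do not, so that run does not show how the fits behave under such a difference. Other settings were library totals, DESeq2 size factors, no filter, abundance-trend (loess) offsets, DESeq2 1.42.0, 4 libraries, replicate block, genes without overlap and each library left out.

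Members and the 19 gene lists (461 distinct genes, all matched by symbol, synonym or hand alias) were chosen with earlier results of these data known. Named genes are the 8 highest and 8 lowest log2 fold changes above median abundance without overlap, up to 3 per list, up to 5 each way among calls per neuron library alone, and a fixed set such as the Hox genes, dpn, elav and cas. Other genes are those called in the fit of 4 libraries, members of runs, their neighbours and some chosen after their values were seen. For log2 ratios 0.5 CPM was added. Gene names beside identifiers come from a RefSeq table of a later assembly, whose coordinates were not used. Promoter motifs, planned at first, were not analysed here, since no sequence was given.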

Additional observations from a re-analysis of the deposited data

How the results depend on the processing

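Of the 14182 genes tested, 0 were called with library totals, DESeq2 size factors, no filter, abundance-trend offsets, genes without overlap or the replicate block on 4 libraries; the 4 libraries alone gave 11, DESeq2 49 and the replicate block on 8 libraries 3, all lower (Ank2, Hml and CG32436). Leaving out 1 library gave 0 to 130 calls, the 130 without neuron replicate 2. Same-numbered libraries do not deviate together in every pair of groups (r = 0.62 for neurons with type I neuroblasts, 0.62 for neurons with brat RNAi and 0.58 for type I with brat RNAi, all with SBa code 26 in replicate 1; -0.38 to -0.43 with brat numb RNAi, code 67), so the numbers are not taken to pair the libraries. Neuron replicate 1 alone gave 259 calls with trend offsets (252 higher); neuron replicate 2 alone gave 2 with library totals and 7 with trend offsets. Genes apart in the higher direction numbered 204 at 1.5-fold and 6 at 3-fold. Lower ones numbered 257 at 1.5-fold, 1 at 3-fold, 33 with library totals, 6 among genes without overlap and 4 relative to the Hox median. Leaving out 1 library moved the log2 fold change across 0 at Ubx (-1.24 to 1.10), abd-A (-1.51 to 0.85), Abd-B (-1.48 to 0.91), Antp (-0.81 to 1.52), en (-1.46 to 0.96), inv (-0.80 to 1.48), eve (-1.54 to 0.96), salm (-0.71 to 1.39), wg (-1.47 to 0.36), hb (-1.35 to 1.06), Kr (-1.23 to 1.21) and Imp (-0.91 to 0.80), lowest without neuron replicate 1; at wg the highest is without neuron replicate 2. In the pair with code 26, whose meaning is not stated, neuron replicate 1 over type I replicate 1 was 4.33 at CR31386 and -1.98 at cas (log2); a block of that code leaves no residual degrees of freedom. Of list medians 114 stayed within the spread and 19 moved, the spread being the SD between the list's medians in the 2 neuron libraries. That margin is wide where these libraries disagree, as for the Hox genes with 1.03 and -1.32, so staying within it does not show a stable median. Depth, 15281722 to 25009648 counts a library, was not varied; 10 of the 35 genes apart higher and 3 of the 11 lower have both group means under 10 CPM.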

Other observations

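Beyond the groups above, several little-studied genes held more H3K27me3 in both neuron libraries than in both type I libraries, named here after their values were seen. CG16879 held 105 and 30.7 CPM of H3K27me3 in neurons and 14.5 and 16.6 CPM in type I neuroblasts, and its H3K4me3 was 4.37 and 8.13 CPM in neurons and 121 and 127 CPM in type I neuroblasts. CG10195 held 108 and 27.5 CPM of H3K27me3 in neurons and 17.0 and 15.5 CPM in type I neuroblasts. CG9238, the glycogen-targeting subunit gene Gbs-70E, held 150 and 97.1 CPM of H3K27me3 in neurons and 53.4 and 43.3 CPM in type I neuroblasts. KP78a and KP78b, a kinase gene pair within the window of pros that shares 1 count, held 164 and 63.0 CPM in neurons and 39.0 and 41.4 CPM in type I neuroblasts, while the RNAi libraries ranged from 48.8 to 166 CPM.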
